A study of Mus musculus with 8 samples.

Results

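The XY minus XX difference in sorted supporting cells was set against the XY minus XX difference in the whole organ, gene by gene, to see which sex differences appear in both materials and which in 1 of them. For each gene the difference of whole testis minus whole ovary was subtracted from the difference of sorted Sertoli minus sorted pre-granulosa cells. The result is called the double difference here. It is on the log2 scale, where 1 unit is a 2-fold ratio, and it is above 0 where the XY minus XX difference is the more positive one in sorted cells. All 17401 autosomal genes with a probe set of their own were described, of 18193 genes on the array.

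The 8 arrays formed 4 groups of 2, all from embryonic day 13 of the mouse line that the labels call C57BL6/J-Tg92. Pre-granulosa samples held about 30000 EGFP-positive cells sorted from XX gonads, and Sertoli samples about 22000 EGFP-positive cells sorted from XY gonads. Ovary and testis samples were pools of 4 whole gonads of the same line, and about 20 ng of RNA of each sample was used. The promoter that drives EGFP is not given in the sources used here. The series text speaks of separate RNA samples, but nothing says that they came from separate litters, so a p-value measures the spread between these samples, which may be technical.

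Supporting cells are the somatic cells that enclose the germ cells. In XY gonads they become Sertoli cells, which form the testis cords and signal to germ cells, Leydig cells and the Müllerian duct, and in XX gonads they become pre-granulosa cells. A fetal gonad also holds germ cells, steroid-producing or stromal interstitial cells, vessels, macrophages and a surface epithelium. In whole organs, fewer cells of a type and less RNA per cell cannot be told apart.

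The sorted samples carried the markers of their labels and few of germ cells. The mean log2 level over 25 Sertoli genes was 9.82 and 9.88 in the Sertoli arrays and 6.56 and 7.10 in the pre-granulosa arrays, and over 20 genes of pre-granulosa and ovarian somatic cells it was 6.56 to 6.66 against 8.95 to 9.08. Ddx4, a helicase of germ cells, read 3.13 to 4.66 in the 4 sorted arrays and 10.62 to 10.89 in the 4 gonad arrays. The sex-linked genes Xist, Eif2s3y and Kdm5d matched the labelled sex in all 8 arrays. Replicates spread most in sorted cells: the root mean square standard deviation of a probe set was 0.531 (pre-granulosa), 0.428 (Sertoli), 0.299 (ovary) and 0.198 (testis). Control probe sets also differed: the 3′ minus 5′ difference of Gapdh was 3.68 in pre-granulosa replicate 1 and between 0.72 and 2.69 in the other 7 arrays. What part this has in the results was not tested. The 2 sets of arrays appear to have been normalized apart, with gonad values a median of 0.38 above sorted-cell values of the same rank, so a level in a sorted sample set beside a level in an organ carries that offset. A constant offset cancels in the double difference, but one that varies with level does not: quantile normalization over all arrays moved the double difference of the 139 named genes by a median of 0.078 and at most 0.51 (Cbln4). Arrays at or under 4.78, the highest value that 9 Y-linked probe sets reached in XX arrays, are taken as at background here. Where every array of the lower group was at background, a fold is given as a lower bound against that level, and the double difference is then a difference from background too.

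Measured sex differences spread more widely over genes in sorted cells than in organs. The standard deviation over autosomal genes was 0.833 for Sertoli minus pre-granulosa and 0.557 for testis minus ovary, and the 2 differences correlated across genes at 0.507 (Pearson; Spearman 0.344). This is a description across genes, which are not independent replicates, and the 2 differences share no array. Both standard deviations also hold the spread between replicates. That spread was larger in sorted cells (0.531 and 0.428) than in organs (0.299 and 0.198), and its part in the wider values was not tested. Genes with a sorted-cell difference of at least 2 in pair 1 (replicate 1 of both cell types) were read again in the replicate 2 arrays, a check chosen after the data were seen. Over these 951 genes the median difference, in the picked direction, was 1.75 in sorted cells and 0.66 in organs. The reverse pick gave 942 genes with 1.79 and 0.54. Of 268 genes picked by an organ difference of at least 2, the median was 2.28 in the organs and 2.15 in the sorted cells of the other replicates, and 235 genes of the reverse pick gave 2.45 and 2.27. Genes picked in sorted cells thus had a smaller median difference in organs, while genes picked in organs had nearly the same median in sorted cells. The medians do not describe every gene. Of the genes picked in organs, 64.9% and 66.0% reached 1 log2 unit in sorted cells, against 88.4% and 88.9% in organs. Of those picked in sorted cells, 67.8% and 67.0% reached it in sorted cells and 35.3% and 32.7% in organs.

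At an adjusted p of 0.01, the false discovery rate that the series text names, the double difference was called for 0 of 17401 autosomal genes (limma, Benjamini-Hochberg over all probe sets; background 0%). The lowest adjusted p was 0.0253. At an unadjusted p under 0.05 there were 2260 genes (13%), 1336 of them above 0 (7.68%) and 924 below (5.31%). At the looser adjusted p of 0.05 there were 56 genes (0.322%), 32 above 0 (0.184%) and 24 below (0.138%), and 113 of 45037 probe sets (0.251%). At 0.10 there were 261 genes (1.5%), 164 above 0 (0.942%) and 97 below (0.557%). In 34 of the 56 only the sorted-cell difference reached 1 log2 unit, in 14 only the organ difference did, in 6 both did in the same direction, and in 2 both did in opposite directions. The 56 depend on the spread estimate: the count was 20 to 25 when the variance was fitted with a trend and 0 without moderation. It was 556 without pre-granulosa replicate 1, 472 without pre-granulosa replicate 2, 29 without Sertoli replicate 1, and 0 without Sertoli replicate 2 or any single organ array. Array differences were therefore also compared directly. They did not overlap in 4987 genes (28.7%). In 3102 genes (17.8%) all 4 Sertoli minus pre-granulosa array differences lay above all 4 testis minus ovary array differences, and in 1885 (10.8%) all lay below.

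Each comparison on its own, at an adjusted p of 0.01 (limma), called 460 autosomal genes (2.64%) in sorted cells, 280 higher (1.61%) and 180 lower (1.03%) in XY. In organs it called 58 (0.333%), 40 higher (0.23%) and 18 lower (0.103%). Both comparisons called 33 genes, all in the same direction, 20 higher and 13 lower in XY. Sorted cells alone called 427 genes and organs alone 25. These counts are not measures of how many genes differ in 1 material only, because they move with the spread each material is given. With a weight per group they became 76 in both, 87 in sorted cells only and 166 in organs only, and with each comparison fitted on its own 4 arrays they became 0, 0 and 47. A class also selects for its own gap, since a gene enters it by a large difference on 1 side and a smaller one on the other. A gene called in 1 comparison only is therefore described here by both differences and by the interval of the double difference. Among the 427 genes called in sorted cells only, 375 had the same sign in organs, 273 had an organ difference under 1, and 55 had a double difference with an unadjusted p above 0.05.

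**Figure D1:**
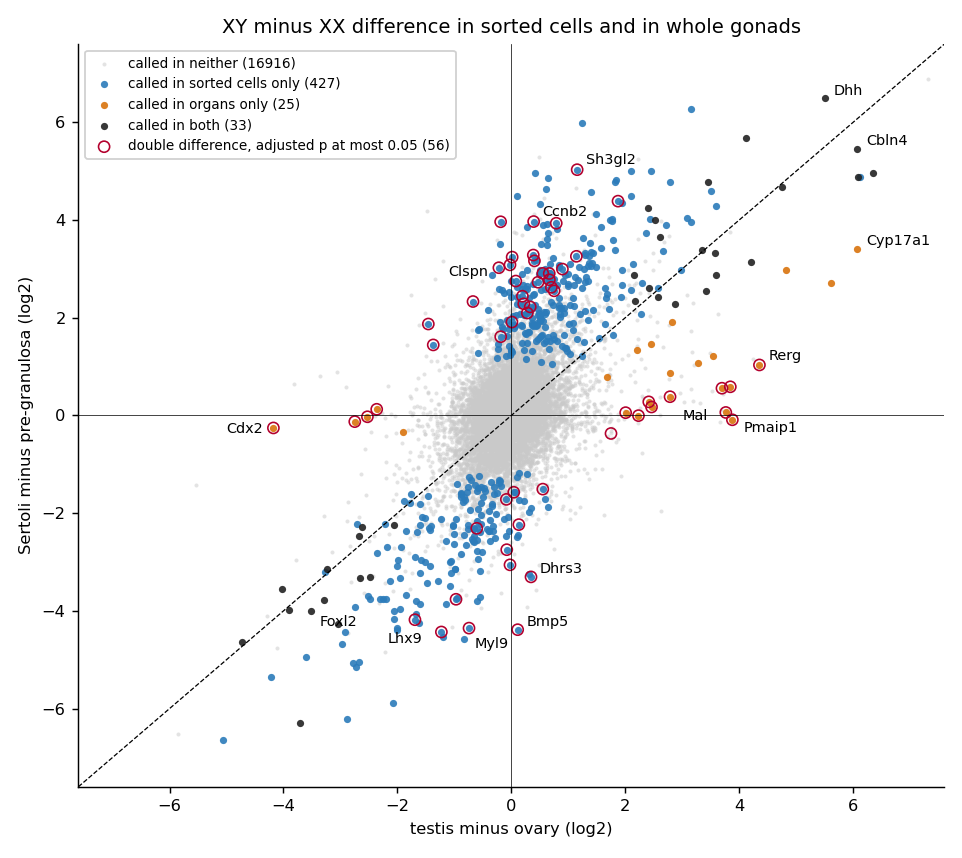
Each point is an autosomal gene, with testis minus ovary on the horizontal axis and Sertoli minus pre-granulosa on the vertical axis (both log2, means of 2 arrays); colours give the comparisons in which the gene was called at an adjusted p of 0.01, and rings mark the 56 genes with a double difference at an adjusted p of at most 0.05. On the dashed line both differences are equal: Dhh, Foxl2 and Cbln4 lie near it, Ccnb2, Clspn, Bmp5 and Dhrs3 lie near the vertical axis, and Mal, Pmaip1 and Cdx2 lie near the horizontal axis.

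Of the 33 genes called in both comparisons, 6 stood on the list of Sertoli cell genes and 2 on that of pre-granulosa and ovarian somatic genes. Dhh, the hedgehog ligand of Sertoli cells, read 5.17 and 6.39 in pre-granulosa cells, 12.35 and 12.19 in Sertoli cells, 5.82 and 6.13 in ovaries, and 11.49 and 11.45 in testes. The XY samples lay far above the XX samples in both materials, by 6.49 in sorted cells and 5.50 in organs. The double difference was 0.99 ± 0.54 (SE; 95% interval -0.33 to 2.31; adjusted p = 0.586). Foxl2, the transcription factor that maintains the granulosa fate, read 8.99 and 9.65 in pre-granulosa cells, 5.19 and 5.43 in Sertoli cells, 9.31 and 8.84 in ovaries, and 5.54 and 5.57 in testes. Its double difference was -0.49 ± 0.39, with an interval from -1.43 to 0.44, and the array differences overlapped.

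The narrowest interval among the 13 named genes called in both comparisons belonged to Calb1, a calcium-binding protein. Calb1 read 9.02 and 9.26 in pre-granulosa cells and 10.12 and 10.14 in ovaries, against 4.56 and 4.43 in Sertoli cells and 5.38 and 5.41 in testes. It was at least 20.5-fold lower in XY sorted cells, where both Sertoli arrays were at background, and 26.6-fold lower in XY organs. The double difference lay between -0.42 and 0.60, which does not show equal differences, since the sorted-cell one is a bound. The 3 other Calb1 probe sets did not repeat this pattern. They gave -0.334, 0.174 and -0.331 in sorted cells and -0.18, -1.702 and -0.467 in organs (double differences -0.153, 1.875 and 0.137). Insyn2b (-0.74 to 0.57, with Sertoli and testis arrays at background), the gap junction gene Gjb2 (-1.09 to 0.93) and Rec8, a meiotic cohesin gene (-0.55 to 1.47), also had intervals that hold 0. Rec8 was lower in XY by 3.56 in sorted cells and 4.02 in organs, and it read 11.29 and 10.42 in the pre-granulosa arrays, where Ddx4 read 3.13 and 3.75. For 21 of the 33 genes called in both the 95% interval held 0. Its median width was 1.5 log2 units, which limits how alike the materials can be called.

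Some secreted products of Sertoli cells had double differences below 0, with the larger value in organs. Cst9, a cystatin, was 31.0-fold higher in Sertoli cells and 81.4-fold higher in testes, and Ptgds, the prostaglandin D synthase, was 29.2-fold and 67.8-fold higher. Cbln4, a cerebellin, read 3.40 and 3.67 in pre-granulosa cells, 8.68 and 9.31 in Sertoli cells, 3.73 and 3.74 in ovaries, and 9.72 and 9.90 in testes. The double differences were -1.39 ± 0.74 for Cst9, -1.21 ± 0.47 for Ptgds and -0.61 ± 0.34 for Cbln4, with adjusted p between 0.409 and 0.585. These values were not stable: Cst9 ranged from -2.26 without pre-granulosa replicate 1 to -0.52 without pre-granulosa replicate 2, and Ptgds from -1.60 to -0.83 with the same arrays left out. A second Ptgds probe set gave -0.23. Cbln4 was -0.11 with quantile normalization over all arrays and ranged from -0.93 to -0.30 with single arrays left out, and its XX arrays were at background in both materials. In Cst9 and Ptgds the pre-granulosa arrays read above the ovary arrays (7.45 and 9.19 against 6.10 and 6.46 for Cst9), more than the Sertoli arrays above the testes (13.22 and 13.32 against 12.69 and 12.56). Cyp26b1, which breaks down retinoic acid, was higher in XY by 2.87 in sorted cells and 3.60 in organs.

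Ereg had the widest gap of the genes called in both. This EGF-family ligand read 10.77 and 11.32 in pre-granulosa cells and 11.07 and 11 in ovaries, 4.86 and 4.64 in Sertoli cells, and 7.13 and 7.53 in testes. The XX samples were alike and the testes read higher than the Sertoli cells, so the difference was 78.5-fold in sorted cells and 13-fold in organs (double difference -2.59 ± 0.34, adjusted p = 0.0583). Jakmip1 went the same way (-1.22 ± 0.33, adjusted p = 0.231), although without probe sets of the _s_at and _x_at kinds its double difference was 0.044. Ankrd63 was 51.3-fold higher in Sertoli cells and 17.3-fold higher in testes (1.57 ± 0.46, adjusted p = 0.266).

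Over the 25 Sertoli genes measured the median difference was 2.77 in sorted cells and 1.99 in organs. Among genes with the same sign in both, the organ difference was the smaller one in 12 and the larger one in 11. The signs were opposite in 2. Both comparisons called 6 of the 25, sorted cells alone 8 and organs alone 0, against 0.19%, 2.45% and 0.144% of all autosomal genes. Members of the list ranged from genes called in both materials, such as Dhh, to genes that stood out in sorted cells. Amh, the hormone that makes the Müllerian duct regress, read 5.40 and 5.06 in pre-granulosa cells, 7.93 and 8.08 in Sertoli cells, 6.24 and 6.33 in ovaries, and 7.0 and 6.9 in testes. Sertoli cells stood above testes and pre-granulosa cells below ovaries, so that a 6.84-fold difference in sorted cells was 1.59-fold in organs (double difference 2.11 ± 0.24, adjusted p = 0.0479). Sox10, a SOX factor also known as a marker of glia, was 20.9-fold higher in Sertoli cells and 3.66-fold higher in testes (2.51 ± 0.29, adjusted p = 0.0479). Its 2 other probe sets gave 1.34 and 0.054, with adjusted p of 0.128 and 0.958. Inhbb, which encodes an inhibin and activin subunit, was 9.77-fold and 2.46-fold higher (1.99 ± 0.28, adjusted p = 0.0637), though its second probe set gave -0.09.

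Sox9, the factor that drives Sertoli fate, went the other way. It read 9.46 and 10.56 in pre-granulosa cells, 11.53 and 11.95 in Sertoli cells, 8.07 and 8.41 in ovaries, and 11.40 and 11.37 in testes. The XY arrays were close to each other, and the pre-granulosa arrays lay above the ovaries, which gave 3.32-fold in sorted cells and 8.86-fold in organs. The double difference was -1.42 ± 0.52 (adjusted p = 0.381), and Sox9 was called in neither comparison. The double difference ranged from -1.97 without pre-granulosa replicate 1 to -0.87 without pre-granulosa replicate 2. The 2 other Sox9 probe sets gave -0.19 and -0.37 (adjusted p = 0.922 and 0.763), with array differences that overlapped. Dmrt1, a factor that Sertoli and germ cells both express, was 2.42 higher in Sertoli cells and differed by -0.00 in organs (2.43, adjusted p = 0.0874; named after its values were seen).

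Both comparisons called 2 of the 20 pre-granulosa and ovarian somatic genes, and sorted cells alone called 3, against 0.19% and 2.45% of all autosomal genes. The median was -2.42 in sorted cells and -1.08 in organs. Among genes with the same sign in both, the organ difference was smaller in 13 and larger in 4. The signs were opposite in 3. Over all autosomal genes the sorted-cell differences also spread more widely (standard deviation 0.833 against 0.557). The share of all genes with a smaller organ difference was not counted, so these counts are a description. Lhx9, a homeobox factor of the early gonad, read 9.84 and 9.57 in pre-granulosa cells, 5.18 and 5.36 in Sertoli cells, 10.87 and 10.48 in ovaries, and 9.31 and 9.58 in testes. Only the Sertoli arrays were low, and the testes read close to the pre-granulosa cells. The 21.6-fold difference in sorted cells was 2.34-fold in organs (double difference -3.20 ± 0.29, adjusted p = 0.0345). A second Lhx9 probe set gave -3.17 and the other two gave -0.71 and -1.04, all with larger adjusted p. Wnt4, a ligand of ovarian development, was 15.2-fold lower in Sertoli cells and 6.70-fold lower in testes (-1.18 ± 0.52, adjusted p = 0.478).

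Fst, which encodes the activin-binding protein follistatin, read 11.15 and 12.88 in pre-granulosa cells and 6.83 and 4.17 in Sertoli cells, and its double difference was between -3.92 and 2.57. A second, dimmer Fst probe set had closer replicates: 11.12 and 10.70 in pre-granulosa cells, 5.94 and 5.54 in Sertoli cells, 8.78 and 9.22 in ovaries, and 6.10 and 5.91 in testes. It gave -5.17 in sorted cells and -2.99 in organs (double difference -2.18 ± 0.35, adjusted p = 0.0813). Irx3, an Iroquois factor, read 11.16 and 9.12 in the pre-granulosa arrays, and its interval ran from -2.75 to 1.46. For Rspo1, a secreted enhancer of Wnt signalling, the interval was -2.62 to 1.27. Gata2, a factor also found in ovarian stroma and vessels, had differences of -2.05 in organs and -0.01 in sorted cells and was called in neither (double difference 2.04 ± 0.36, adjusted p = 0.0986). Its second probe set gave -1.11 and 0.39 (1.49, adjusted p = 0.205).

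**Figure D2:**
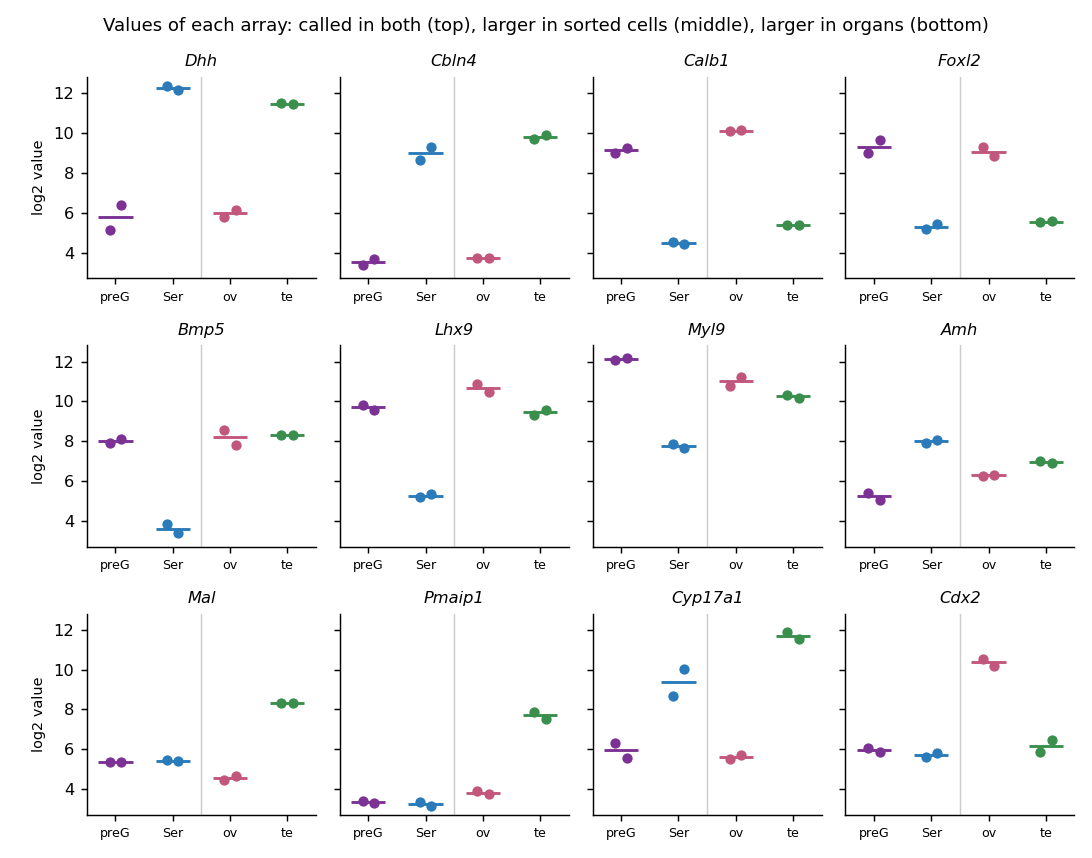
Log2 values of each array for 12 genes; points are single arrays, bars are group means, and the grey line parts the sorted samples (preG, pre-granulosa; Ser, Sertoli) from the organs (ov, ovary; te, testis). In the top row the steps between XX and XY are of similar size in sorted cells and organs, in the middle row the step is larger in sorted cells, and in the bottom row it is larger between ovary and testis.

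The genes with the largest double differences below 0 among those called in sorted cells only were high in pre-granulosa cells, in ovaries and in testes, and low in Sertoli cells. Bmp5, a bone morphogenetic protein, read 7.90 and 8.12 in pre-granulosa cells, 3.83 and 3.41 in Sertoli cells, 8.58 and 7.82 in ovaries, and 8.33 and 8.29 in testes. Sertoli arrays were at background, at least 9.38-fold under pre-granulosa cells, and testes were 1.08-fold above ovaries, a double difference of -4.50 ± 0.40 (adjusted p = 0.0345). Its other probe sets gave -2.36 and -2.16, with adjusted p of 0.132 and 0.334.

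Myl9, a myosin light chain of contractile cells, read 12.08 and 12.19 in pre-granulosa cells, 7.88 and 7.68 in Sertoli cells, 10.77 and 11.23 in ovaries, and 10.34 and 10.17 in testes (double difference -3.61 ± 0.28, adjusted p = 0.0345). Dhrs3, an enzyme that turns retinaldehyde back to retinol, read 9.55 and 10.08 in pre-granulosa cells and 6.35 and 6.67 in Sertoli cells, while all 4 gonad arrays lay between 9.12 and 9.66 (-3.65 ± 0.34, adjusted p = 0.0345). Uchl1, a ubiquitin hydrolase, read 8.96 and 8.87 in pre-granulosa cells and 5.98 and 5.73 in Sertoli cells, and 8.55 to 8.88 in the gonads (-3.03 ± 0.27, adjusted p = 0.0345). In all 3 the Sertoli arrays were the lowest, apart from all other arrays. That also held for Frmd6 (-2.79 ± 0.24) and Niban1 (-2.67 ± 0.22), with the same adjusted p of 0.0345. Dclk1, a doublecortin-like kinase, was 58.9-fold lower in Sertoli cells and 4.21-fold lower in testes (-3.81 ± 0.57, adjusted p = 0.0709), and 2 of its 8 other probe sets passed the looser threshold (-4.08, adjusted p = 0.0391, and -3.14, adjusted p = 0.0376). Another gave -4.24 (adjusted p = 0.0637), and the remaining ones gave -1.46 to -0.20, with adjusted p from 0.452 to 0.874.

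Igf2, an insulin-like growth factor, read 11.72 and 12.42 in pre-granulosa cells and 9.53 and 9.68 in Sertoli cells, and 12.49 to 12.63 in the gonads. The 5.54-fold difference of sorted cells was 1.07-fold in organs (-2.37 ± 0.34, adjusted p = 0.0637), though a second probe set gave -0.34. Thbs2, a thrombospondin of the matrix, was 20.9-fold lower in Sertoli cells and 4.04-fold lower in testes (-2.37 ± 0.35, adjusted p = 0.0674; a further probe set gave -3.68, adjusted p = 0.0491). The ligand Wnt9a was 33.5-fold and 6.88-fold lower (-2.28 ± 0.42, adjusted p = 0.110), though its second probe set gave -0.035. By contrast, Foxl2os, the transcript opposite Foxl2, and Ccdc182 were called in sorted cells only, with values of -5.06 and -4.22 in organs as well. Their intervals of the double difference held 0 (-3.37 to 0.18 and -2.52 to 0.24). Both Ccdc182 testis arrays, 1 Foxl2os testis array and 1 Sertoli array of each gene were at background, so these intervals do not show equal differences.

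Of the 31 gene lists, that of G2 and M phase had the highest median double difference. Mitosis needs cyclin B with its kinase Cdk1 to start, topoisomerase II to disentangle the chromosomes and motor proteins such as Cenpe to move them, and the genes for these are switched on together late in the cycle. Promoters of such genes are known for a CHR element (TTTGAA) near the transcription start and for CCAAT boxes upstream. The sequences below show these letters in 3 mitotic genes and, for contrast, in Clspn, a gene of S phase. They are 122 bases long, from 110 bases before to 12 after the annotated start, in the 5′ to 3′ direction of the gene, from RefSeq with build GRCm38.p6. Capitals mark TTTGAA or CCAAT on either strand (TTCAAA or ATTGG on the other one).
Ccnb2, chr9:70421543-70421664, minus strand: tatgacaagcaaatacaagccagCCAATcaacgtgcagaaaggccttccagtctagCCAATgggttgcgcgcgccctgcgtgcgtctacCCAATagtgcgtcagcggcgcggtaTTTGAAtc
Cdk1, chr10:69352901-69353022, minus strand: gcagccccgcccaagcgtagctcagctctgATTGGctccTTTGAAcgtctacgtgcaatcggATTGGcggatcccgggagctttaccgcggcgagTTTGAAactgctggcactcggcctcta
Top2a, chr11:99024178-99024299, minus strand: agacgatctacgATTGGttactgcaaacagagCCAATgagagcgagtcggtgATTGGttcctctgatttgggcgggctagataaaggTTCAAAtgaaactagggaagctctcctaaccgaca
Clspn, chr4:126556870-126556991, plus strand: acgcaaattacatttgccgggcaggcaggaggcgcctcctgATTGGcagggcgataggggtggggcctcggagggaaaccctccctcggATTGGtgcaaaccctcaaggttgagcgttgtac

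The Ccnb2, Cdk1 and Top2a windows hold 1, 2 and 1 copies of TTTGAA and 3, 2 and 3 of CCAAT, and the Clspn window holds 0 and 2. In windows of 300 bases (250 before to 50 after the start), TTTGAA on either strand was found in 15 of 20 G2 and M phase genes with a RefSeq window (75.0%), against 15.5% of 13832 autosomal genes. CCAAT was found in 17 of the 20 (85.0%) and in 13 of 20 S phase genes (65.0%), against 41.7%. GGCGGGAA, an E2F-type sequence, was found on either strand in 5 of 20 S phase genes (25.0%), against 3.75%. Of the genes called in sorted cells only, TTTGAA stood in 45 of 196 higher in Sertoli cells (23.0%) and 22 of 139 higher in pre-granulosa cells (15.8%). It stood in 4 of 14 genes called in organs only (28.6%) and in 2 of 28 called in both comparisons (7.14%). Genes of the G2 and M phase list are among those called in sorted cells only, so these counts overlap. A match is a description of the letters and not a site of binding.

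All 24 measured genes of G2 and M phase had a double difference above 0, against 58.4% of all autosomal genes. In 23 of them the array differences did not overlap (background 17.8% in this direction), 20 had an unadjusted p under 0.05 (background 7.68%), and Ccnb2 and Cenpe passed the looser adjusted p. The median was 2.76 in sorted cells and 0.37 in organs, and the median double difference of 2.59 stayed between 2.21 and 2.75 when single arrays were left out. Sorted cells alone called 15 of the 24 (2.45% of all genes). The list was chosen with earlier results on these arrays known, so the count describes it and is not independent evidence.

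Ccnb2, a cyclin B gene, read 4.89 and 5.21 in pre-granulosa cells, 8.71 and 9.32 in Sertoli cells, 9.44 and 9.28 in ovaries, and 9.70 and 9.80 in testes. Only the pre-granulosa arrays were low: the Sertoli arrays were near both organs. The difference was 15.6-fold in sorted cells and 1.31-fold in organs, a double difference of 3.58 ± 0.34 (adjusted p = 0.0376). Cenpe, a kinesin of the kinetochore, read 5.39 and 5.44 in pre-granulosa cells, 7.66 and 8.05 in Sertoli cells and 8.69 to 8.96 in the gonads (2.25 ± 0.24, adjusted p = 0.0450). Its second probe set gave 1.15 (adjusted p = 0.574). Cdk1, the mitotic kinase, was 15.0-fold higher in Sertoli cells and 1.55-fold higher in testes (3.28 ± 0.52, adjusted p = 0.0783). Top2a was 7.89-fold and 1.20-fold higher (2.71 ± 0.33, adjusted p = 0.0511), and Hmmr, a spindle protein gene, 31.3-fold and 1.34-fold (4.55 ± 0.61, adjusted p = 0.0605). The 2 other Top2a probe sets gave -0.08 and 0.48, and the 4 other Hmmr probe sets gave -0.92 to 1.46.

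**Figure D3:**
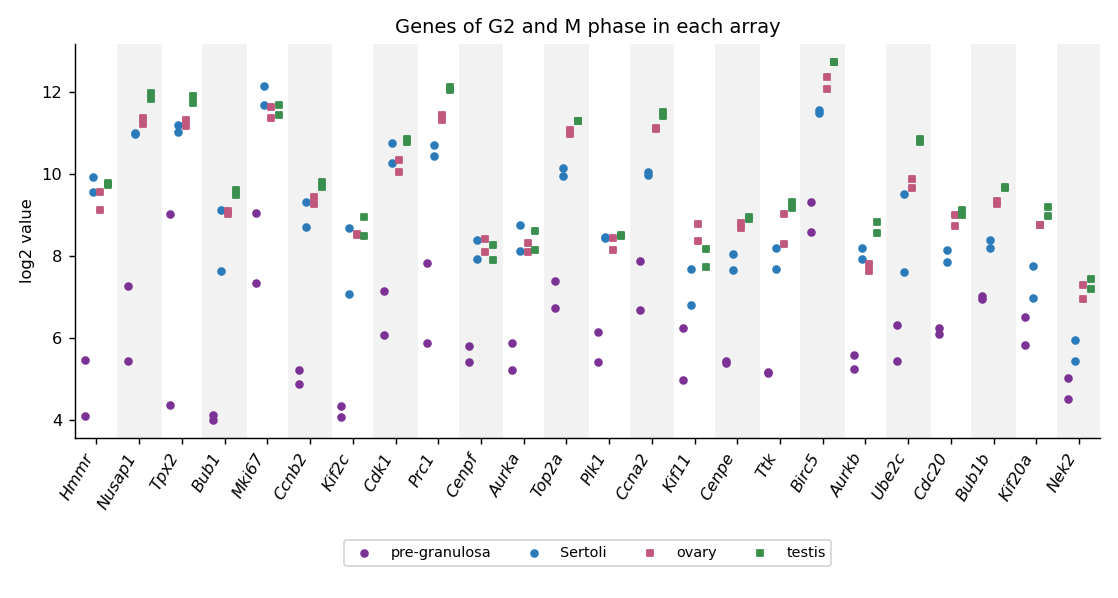
Log2 values of the 24 measured genes of G2 and M phase in each of the 8 arrays (circles, sorted cells; squares, whole gonads), ordered by double difference. The pre-granulosa arrays are the lowest of the 4 groups for most genes, and the Sertoli arrays lie close to the gonads or below them. Ovary and testis differ little (median 0.37).

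S phase genes moved the same way by less. The median over 24 genes was 1.21 in sorted cells and -0.00 in organs. The double difference was above 0 in 23 of 24 (58.4% of all genes), the arrays did not overlap in 18 (17.8%), and 14 had an unadjusted p under 0.05 (7.68%). The looser adjusted p was passed by 0 of the 24. Mcm7, a subunit of the replicative helicase, read 9.33 and 9.32 in pre-granulosa cells, 10.86 and 10.71 in Sertoli cells and 10.93 to 11.36 in the gonads (1.70 ± 0.22, adjusted p = 0.0570). Fen1, which trims DNA flaps, and Cdt1, which licenses origins, had double differences of 1.98 ± 0.28 and 2.50 ± 0.37 (adjusted p = 0.0637 and 0.0660). Clspn, a checkpoint adaptor at the replication fork, read 5.41 and 5.09 in pre-granulosa cells, 8.24 and 8.42 in Sertoli cells, 9.04 and 8.98 in ovaries, and 9.09 and 8.88 in testes. The 8.45-fold difference of sorted cells was 1.02-fold in organs (3.10 ± 0.25, adjusted p = 0.0345), while its second probe set gave 0.41. Among the other genes with an adjusted p of at most 0.05, named after their values were seen, were Cdca3, Cdca5, Dlgap5, Pbk, Brca1, Ezh2 and Kpna2, with double differences from 1.80 (Ezh2) to 4.15 (Cdca5).

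CDK inhibitors and D cyclins, taken as 1 list, did not form such a group. The list pools both kinds, so its median does not describe the inhibitors alone. Over 10 CDK inhibitor and D cyclin genes the median was -0.08 in sorted cells and -0.10 in organs. Without overlap, 2 lay above (17.8% of all genes) and 2 below (10.8%). Cdkn1a, a CDK inhibitor, was lower in XY by 0.76 in sorted cells and by 1.78 in organs (1.02 ± 0.28, adjusted p = 0.237). Cdkn2c, another inhibitor, differed by 0.67 in sorted cells and 0.03 in organs (0.64 ± 0.22, adjusted p = 0.346). Ccnd2, a D cyclin, differed by -0.67 and 0.28 (-0.96 ± 0.37, adjusted p = 0.404). Cdkn1a and Cdkn2c were the 2 genes above without overlap, and Ccnd2 was among those below.

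**Figure D4:**
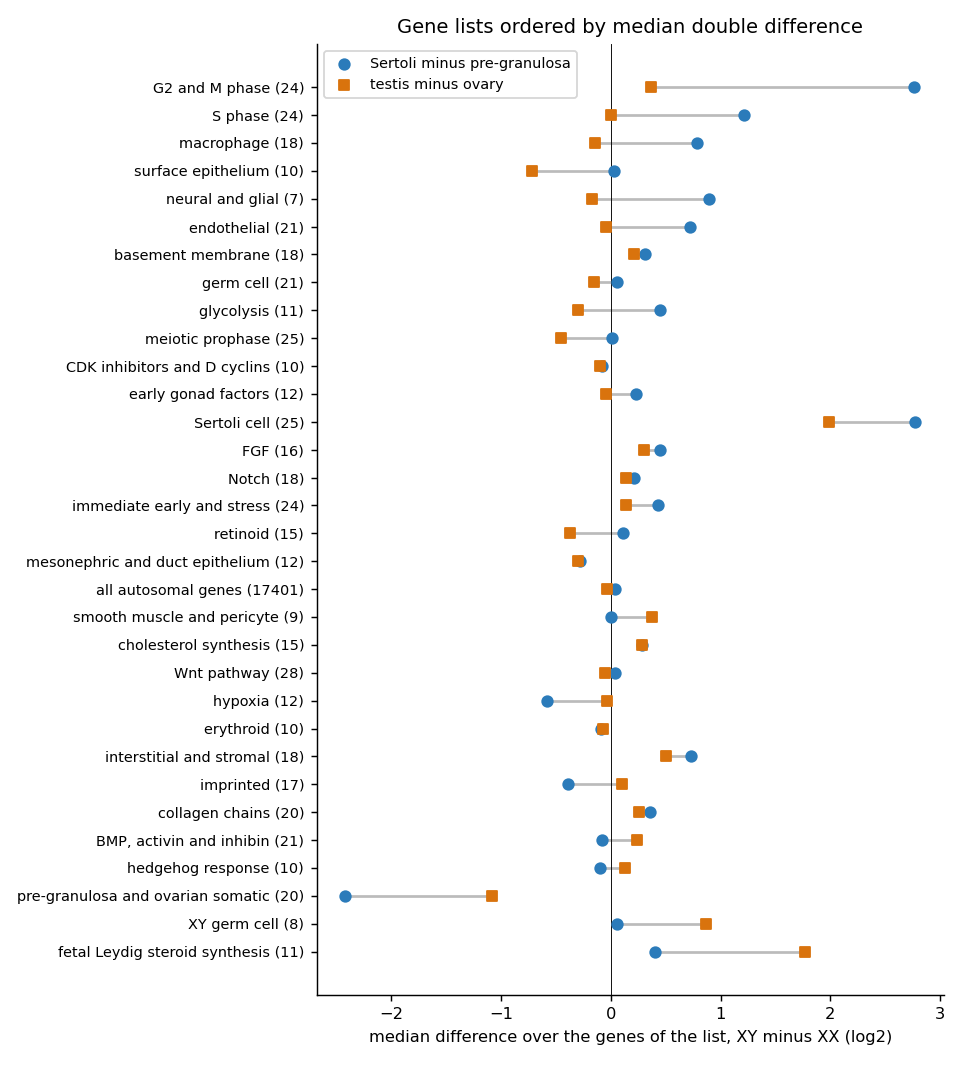
Median XY minus XX difference (log2) over the measured genes of each list, for sorted cells (circles) and organs (squares), with the number of genes in brackets, ordered by median double difference. The G2 and M phase list has the longest line, 2.76 against 0.37; the fetal Leydig list has the longest one in the other direction, 0.40 against 1.77.

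Organs alone called 20 genes higher in testis and 5 higher in ovary. All 25 had a double difference with an unadjusted p under 0.05 (13% of all genes), 14 of them with an adjusted p of at most 0.05 (0.322%). The class selects for this gap on the same arrays, so these counts are a description and no support. Steroid synthesis, the work of fetal Leydig cells, made up part of the testis side. Cyp17a1, which makes androgen precursors, read 6.32 and 5.58 in pre-granulosa cells, 8.69 and 10.03 in Sertoli cells, 5.51 and 5.74 in ovaries, and 11.87 and 11.53 in testes. The Sertoli arrays lay between the XX samples and the testes, so the sorted-cell difference was 10.6-fold and the organ difference 67.4-fold (-2.67 ± 0.66, adjusted p = 0.198). Cyp11a1, which cuts the cholesterol side chain, was 6.5-fold and 48.9-fold higher in XY (-2.91 ± 0.66, adjusted p = 0.170). Its 2 other probe sets gave -0.637 and -0.166, with organ differences of -0.124 and 0.106. Hsd3b1, a steroid dehydrogenase, was 2.10-fold and 9.69-fold higher (-2.21 ± 0.30, adjusted p = 0.0605). Over the 11 measured genes of the list the median was 0.40 in sorted cells and 1.77 in organs, and 8 lay below without overlap (background 10.8%). The list also holds Thbs2, which is high in XX, and Mc2r, the corticotropin receptor, which read 3.23 to 3.59 in all sorted arrays, 5.41 and 5.07 in ovaries, and 7.26 and 7.22 in testes.

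Other genes of the testis side had small differences in sorted cells. Mal, a membrane raft protein, read 5.37 to 5.45 in the 4 sorted arrays, 4.49 and 4.65 in ovaries, and 8.32 and 8.34 in testes. The ovary arrays were at background. Its difference of 1.04-fold in sorted cells and at least 11.7-fold in organs gave the lowest adjusted p of all genes (double difference -3.70 ± 0.19, adjusted p = 0.0253), although its second probe set gave -0.88. Pmaip1, a BH3-only death protein, read 3.18 to 3.43 in sorted cells, 3.89 and 3.76 in ovaries, and 7.87 and 7.54 in testes (-3.97 ± 0.25, adjusted p = 0.0338), with all arrays but the testes at background. Prokr2, a prokineticin receptor, read 4.13 to 4.97 in sorted cells, 4.71 and 4.90 in ovaries, and 8.72 and 8.57 in testes, and its 2 probe sets gave -3.26 and -3.88, both with an adjusted p of 0.0338. Rerg, a RAS-like growth inhibitor, read 3.35 to 4.73 in sorted cells and 4.32 and 4.37 in ovaries, all at background, and was at least 15.1-fold higher in testes (-3.32 ± 0.31, adjusted p = 0.0345).

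Lefty2, an inhibitor of Nodal signalling that XY germ cells express, read 5.52 to 6.49 in sorted cells, 5.57 and 5.49 in ovaries, and 9.22 in both testes (-3.14 ± 0.32, adjusted p = 0.0391). Lefty1 and Tdgf1, of the same Nodal pathway, had double differences of -1.83 ± 0.32 and -1.40 ± 0.27 (adjusted p = 0.0996 and 0.126). Cbln1, a cerebellin, was 7.91-fold higher in Sertoli cells and 28.3-fold higher in testes (-1.84 ± 0.56, adjusted p = 0.288), and another of its probe sets passed the looser threshold (-4.05, adjusted p = 0.0345).

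On the ovary side the leading gene was Cdx2, a caudal homeobox factor. It read 6.05 and 5.89 in pre-granulosa cells, 5.61 and 5.81 in Sertoli cells, 10.54 and 10.18 in ovaries, and 5.88 and 6.49 in testes. The ovary stood 18.1-fold above the testis while the sorted cells differed 1.20-fold (3.92 ± 0.35, adjusted p = 0.0345), and its second probe set gave 0.17. Calcoco2, an autophagy receptor, read 4.68 to 4.94 in sorted cells, 7.54 and 7.66 in ovaries, and 4.97 and 4.74 in testes (2.62 ± 0.22, adjusted p = 0.0345). Phlda2, an imprinted growth regulator, had 6.19 to 6.42 in sorted cells, 8.79 and 8.94 in ovaries, and 6.42 and 6.59 in testes (2.49 ± 0.21, adjusted p = 0.0345). Edar, a TNF-family receptor, followed with 2.50 ± 0.29 (adjusted p = 0.0479), and Myh3, an embryonic myosin, with 1.56 ± 0.22 (adjusted p = 0.0637). The second Edar probe set gave 0.15.

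Stra8, the retinoid-induced gene that starts meiosis in XX germ cells, was flat in sorted cells (5.11 to 5.46) and read 8.27 and 7.51 in ovaries against 5.42 and 5.58 in testes. It was called in neither comparison (double difference 2.38 ± 0.39, adjusted p = 0.0853). Over 25 genes of meiotic prophase, a list that holds Cdx2 although it is no meiotic gene, the median was 0.01 in sorted cells and -0.46 in organs. Sycp3, of the synaptonemal complex, did the reverse of Stra8: it read 8.18 and 7.47 in pre-granulosa cells, 5.71 and 5.31 in Sertoli cells, 8.72 in both ovaries, and 8.05 and 8.06 in testes. Here the sorted-cell difference was 4.96-fold and the organ difference 1.58-fold (-1.65 ± 0.37, adjusted p = 0.169).

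**Figure D5:**
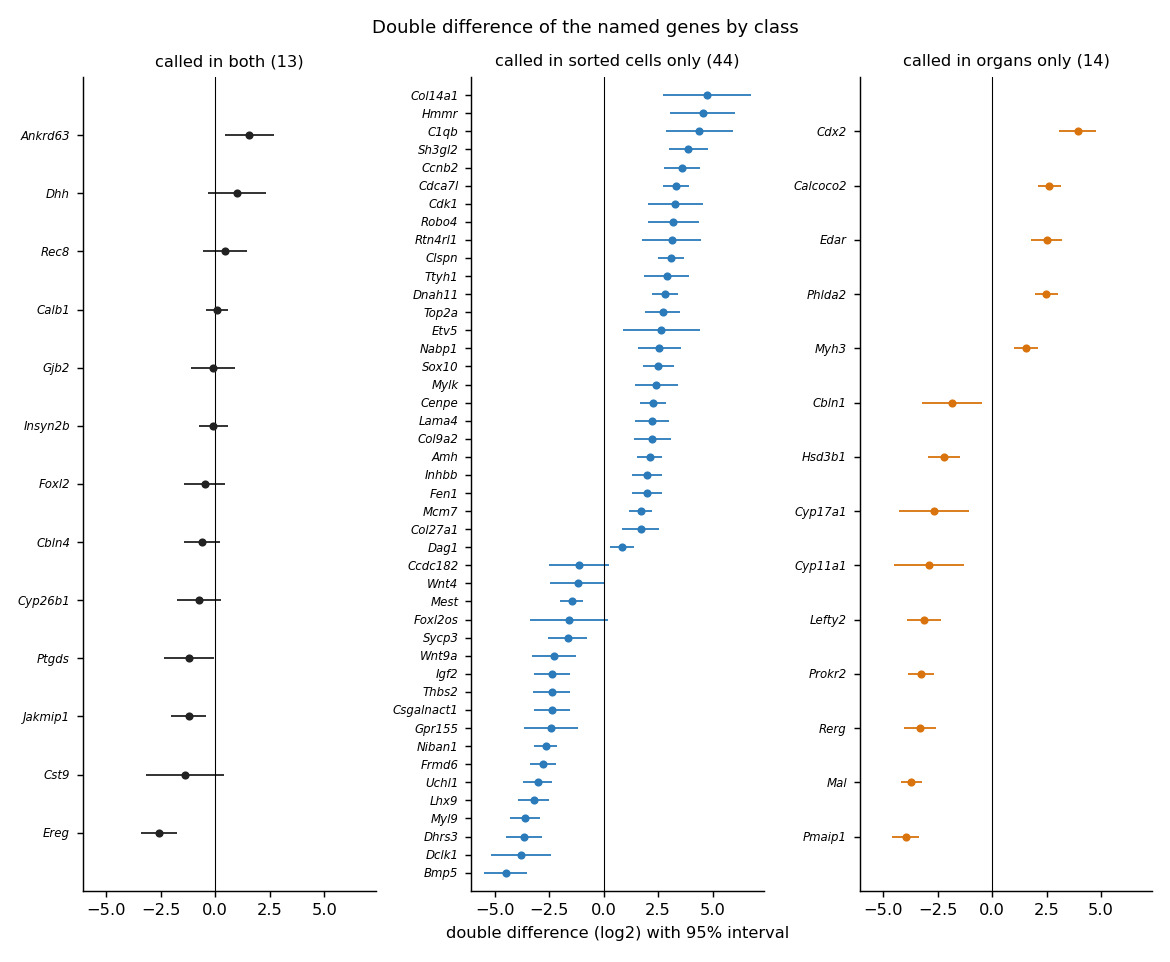
Double difference (log2, points) with its 95% interval (lines) for the 71 named genes called in both comparisons, in sorted cells only or in organs only at an adjusted p of 0.01. Of the 13 genes called in both 9 have intervals that hold 0. Of the 44 called in sorted cells only 3 do (Wnt4, Foxl2os and Ccdc182), and of the 14 called in organs only 0 do. A class selects for its own gap, so these counts are a description.

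Genes of cells other than supporting cells had double differences too. Of 18 macrophage genes, 17 had a double difference above 0 (58.4% of all genes) and 11 lay above without overlap (17.8%), while 0 passed the looser adjusted p, with a median of 0.79 in sorted cells and -0.15 in organs. Their mean log2 level was 4.98 and 4.89 in pre-granulosa arrays, 5.71 and 6.80 in Sertoli arrays, and 6.13 to 6.61 in the gonads. C1qb, a complement gene of macrophages, read 4.69 and 5.75 in pre-granulosa cells, 9.21 and 10.21 in Sertoli cells and 8.15 to 8.55 in the gonads (4.38 ± 0.63, adjusted p = 0.0652). The median of the list was 0.56 without Sertoli replicate 2 and 1.44 without Sertoli replicate 1. Of 21 endothelial genes, 18 were above 0 and 8 lay above without overlap, against the same 58.4% and 17.8%, and 0 passed the looser adjusted p. Robo4, an endothelial guidance receptor, read 4.36 and 4.22 in pre-granulosa cells, 6.78 and 7.53 in Sertoli cells and 6.75 to 7.58 in the gonads (3.20 ± 0.48, adjusted p = 0.0725), while Pecam1, a defining endothelial gene, read 4.34 to 4.76 in all sorted arrays. The part of such cells in the double differences of other genes was not tested.

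The germ cell genes were low in all sorted arrays: the mean over 21 of them was 4.92 to 5.45, against 8.91 to 9.17 in the gonads. Their median double difference was 0.61, with a sorted-cell median of 0.06 and an organ median of -0.15. The surface epithelium list (10 genes) was likewise flat in sorted cells (0.03) and lower in testes (-0.72). Muc16, a mucin of that epithelium, read 3.80 to 4.05 in sorted cells, 6.36 and 6.30 in ovaries, and 5.17 and 5.01 in testes (1.26 ± 0.22, adjusted p = 0.0947).

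Hedgehog signalling runs from Sertoli cells to their neighbours, and some genes listed for its response differed from the ligand in pattern. Dhh was higher in XY in both materials, whereas Gli1, the transcription factor that hedgehog induces, read 5.05 to 5.39 in the sorted arrays, 5.98 and 6.24 in ovaries, and 7.43 and 7.85 in testes (double difference -1.69 ± 0.28, adjusted p = 0.0894). Of 10 genes on the hedgehog response list 5 lay below without overlap (10.8% of all genes) and 0 above (17.8%). The list also holds the pathway genes Smo and Boc, which are among those below, so the count is not one of response genes alone. Ptch1, a receptor and target, was 1.97-fold higher in Sertoli cells and 2.90-fold higher in testes (-0.56 ± 0.19, adjusted p = 0.346). Smo, the signal transducer, differed by -1.46 in sorted cells and 0.19 in organs (-1.65 ± 0.42, adjusted p = 0.210). Boc differed by -4.33 and -1.05 (-3.28 ± 0.88, adjusted p = 0.231), and its other probe sets gave -0.39 and -0.28. Pdgfra, a receptor of interstitial cells, read 6.55 to 7.64 in sorted cells and 11.17 to 12.41 in the gonads, with testes the higher (-1.61 ± 0.41, adjusted p = 0.210).

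Further genes called in sorted cells only were higher in XY in both materials, with a smaller value in organs. Sh3gl2, an endophilin of membrane traffic, read 4.71 and 4.87 in pre-granulosa cells, 9.86 and 9.78 in Sertoli cells, 7.26 and 6.48 in ovaries, and 8.08 and 7.96 in testes. Organ arrays lay between the 2 sorted cell types, at 32.6-fold in sorted cells and 2.22-fold in organs (3.87 ± 0.37, adjusted p = 0.0376), though its other probe sets gave 0.74 and 0.78. Rtn4rl1, a Nogo receptor relative, was 77.2-fold and 8.91-fold higher in XY (3.11 ± 0.56, adjusted p = 0.105), and Ttyh1, a membrane protein, 32.0-fold and 4.31-fold (2.89 ± 0.42, adjusted p = 0.0667). Etv5, an ETS factor downstream of FGF signalling, was 17.5-fold and 2.79-fold higher (2.64 ± 0.73, adjusted p = 0.239), but its other probe sets gave 0.35 and -0.54. Probe sets disagreed in sign for Nabp1, a single-strand DNA binding protein, where the probe set used gave 2.55 and another -2.44, and for Dag1, a laminin receptor, with 0.85 against -0.79 to -0.58.

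The neural and glial list, 7 genes that include Sox10, had a median of 0.90 in sorted cells and -0.17 in organs. Tubb3, a neuronal tubulin, read 6.42 and 5.68 in pre-granulosa cells, 7.51 and 7.45 in Sertoli cells and 5.87 to 6.62 in the gonads (0.89 ± 0.37, adjusted p = 0.442). Foxd3, a neural crest factor, read 3.70 to 3.97 in all sorted arrays. Their part in the Sox10 result was not tested.

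Matrix genes split. Of 20 collagen chain genes, sorted cells alone called 7 (2.45% of all genes), and the arrays lay above without overlap in 6 (17.8%) and below in 6 (10.8%). Col14a1, a fibril-associated collagen, read 3.33 and 5.33 in pre-granulosa cells, 10.39 and 10.23 in Sertoli cells, 8.59 and 8.71 in ovaries, and 9.92 and 9.85 in testes (4.74 ± 0.82, adjusted p = 0.0963). Col9a2 and Col27a1 were 8.39-fold and 8.27-fold higher in Sertoli cells and 1.79-fold and 2.55-fold higher in testes. Lama4, a laminin chain of basement membranes, was 7.52-fold and 1.61-fold higher (2.23 ± 0.32, adjusted p = 0.0637), though its second probe set gave -0.032.

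Over 17 imprinted genes the median was -0.39 in sorted cells and 0.10 in organs. The double difference was below 0 in 12 and above 0 in 5 (58.4% of all genes above 0). Without overlap, 5 lay below (10.8% of all genes) and 2 above (17.8%). Mest, an imprinted hydrolase gene, read 10.23 and 10.16 in pre-granulosa cells, 8.87 and 9.13 in Sertoli cells and 11.07 to 11.43 in the gonads (-1.48 ± 0.21, adjusted p = 0.0647). Like Igf2, it was lowest in the Sertoli arrays.

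In some genes the array differences had opposite signs in the 2 materials. All 4 sorted-cell array differences were above 0 and all 4 organ array differences below 0 in 738 genes (4.24%), and the reverse held in 421 (2.42%), counts that are given as a description with no test. Both differences reached 1 log2 unit in 31 of these (0.178%), from which the genes named next were taken. Cdca7l, a cell division cycle-associated gene, read 5.67 and 5.75 in pre-granulosa cells, 7.64 and 7.52 in Sertoli cells, 9.59 and 9.87 in ovaries, and 8.12 and 8.42 in testes. It was 3.66-fold higher in XY sorted cells and 2.75-fold lower in XY organs (3.33 ± 0.25, adjusted p = 0.0338). Dnah11, an axonemal dynein, did the same by 1.44 and -1.37 (2.81 ± 0.24, adjusted p = 0.0345). Both were called in sorted cells only, and in organs their adjusted p was 0.0294 and 0.0303.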

How the data were processed

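The authors deposited log2 values of 8 Affymetrix arrays, made with RMA per the submitters' processing notes, which give no version. The ranked values of the sorted and gonad arrays differ by a median of 0.38 and by at most 0.17 within each set, so the sets appear to have been normalized separately. A constant shift cancels in the double difference, one that varies with level does not. Of 45101 probe sets 64 controls were left out. For each gene the probe set with a single symbol and the highest mean was used, with symbols from the platform annotation and chromosomes from RefSeq (GRCm38.p6).

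The double difference was fitted with limma 3.58.1 in R 4.3.3 (1 mean per group, all 8 arrays, eBayes, two-sided, 4 residual degrees of freedom), adjusted by Benjamini-Hochberg over 45037 probe sets. The fit was tested on simulated data in which all 4 groups had the same spread. The real groups differ in spread, which that test does not cover. Calls used an adjusted p of 0.01. Named were 26 chosen genes, the 8 highest and 8 lowest t among genes without overlap, up to 6 each way per class by size and up to 3 members per list with the lowest p. Genes and lists were chosen with earlier results of these data known. Replicate numbers did not pair the samples: deviations of same-numbered arrays correlated between -0.16 and 0.05. Alternatives were normalizations, a filter, moderation, weights, a replicate block, thresholds, probe set choice and omission of each array.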

Additional observations from a re-analysis of the deposited data

Results flagged for a closer look

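For 7 named genes every sorted-cell array difference had 1 sign and every organ array difference the other, with both means at 1 log2 unit or more. The double difference was 5.67 for Csf1r, a macrophage receptor, with Sertoli arrays of 6.54 and 10.86 that stood far apart. It was 3.33 for Cdca7l and 2.81 for Dnah11. Postn, a matrix protein, had 2.69 and Rarb, a retinoic acid receptor, 2.38, both higher in Sertoli cells and lower in testes. Igf1r, the receptor of insulin-like growth factors, had -2.69 and Fzd1, a Wnt receptor, -2.5, both lower in Sertoli cells and higher in testes. The opposite signs themselves were not tested. The double difference tests only that the differences are unequal, which the choice of these genes favours, and its adjusted p (limma) was 0.0338 for Cdca7l, 0.0345 for Dnah11 and from 0.126 to 0.328 for the other 5, none of them under 0.01. For Csf1r, Postn, Rarb, Igf1r and Fzd1 neither comparison was called. Another Fzd1 probe set gave 0.03, and the 4 others of Igf1r gave -0.88 to 0.23.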

How the results depend on the processing

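The double difference was called for 0 autosomal genes at an adjusted p of 0.01 under every normalization, filter, moderation, weight, block, probe set choice and omission that was run, and for 2 probe sets without Sertoli replicate 2. At 0.05 it was called for 56 genes and 113 probe sets, and at 0.10 for 261 and 530. The count of 56 became 25 with a variance trend, 20 with a robust trend, 0 without moderation, 22 with a weight per group, 23 with a weight per array and 205 with the mean of a gene's probe sets.

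The genes called in both comparisons, in sorted cells only and in organs only (33, 427 and 25) became 0, 8 and 0 without moderation, 76, 87 and 166 with a weight per group or per array, 0, 0 and 47 with each comparison on its own 4 arrays, 124, 1154 and 68 at an adjusted p of 0.05, and 206, 1817 and 110 at 0.10. On their own arrays the lowest adjusted p in sorted cells was 0.0614, with 2554 genes at an unadjusted p under 0.05. With the mean of probe sets 74 were called in both and 48 in organs only. The replicate block, which the numbers do not call for, gave 7, 190 and 4, with 0 genes for the double difference at 0.05.

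Leaving out single arrays gave 0 to 44 genes in both, 49 (Sertoli replicate 2 left out) to 829 (pre-granulosa replicate 2 left out) in sorted cells only, 0 to 20 in organs only, 0 to 2 probe sets for the double difference at 0.01 and 0 to 556 genes at 0.05, and 6299 to 9686 without overlap (4987 with all arrays), where fewer differences are compared. Without an ovary or a testis array 0 genes were called in organs, and 0 at 0.05 for the double difference.

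Double differences that were not called changed sign: Calb1 (-0.20) and Gjb2 (0.079) with quantile normalization of all arrays, Dag1 (-0.31), Nr2f2 (-0.68) and P4ha1 (-0.13) with the mean of probe sets, and Acta2 (0.51) and Jakmip1 (0.044) without _s_at and _x_at probe sets. Leaving out single arrays gave both signs for Calb1 (-0.032 to 0.213), Fst (-2.00 to 0.66), Gjb2 (-0.42 to 0.26), Insyn2b (-0.25 to 0.076), Irx3 (-1.66 to 0.37), Nr2f2 (-1.10 to 2.92), Pecam1 (-0.13 to 0.49) and Rspo1 (-1.39 to 0.05). The cause was not tested. Every other named gene kept its sign under the alternatives run. The precision is limited by having 2 arrays in a group.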
